A study of Mus musculus with 40 samples.

Results

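In all, 10 genes of FoxO and glucocorticoid signaling were followed at the RNA level through 40 gastrocnemius muscles. The rule takes them by name, and the list was drawn up with earlier results of these data known. They are the FoxO factors Foxo1, Foxo3 and Foxo4, the glucocorticoid receptor gene Nr3c1, and 6 genes that glucocorticoids are known to induce, Fkbp5, Tsc22d3, Klf15, Klf9, Sgk1 and Ddit4. All 10 were measured, among 12573 genes. The muscles came from female C57BL6/J mice, 8 in each of 5 groups, and each library was a separate mouse. Tumor-bearing mice had received Lewis lung carcinoma (LLC) cells, a mouse lung tumor line, at 8 weeks of age. Collection followed 1 week later for 1wk mice, aged 9 weeks, and 2 weeks later for 2wk mice, aged 10 weeks. The remaining tumor-bearing mice were collected after 3 to 4 weeks, at 11 to 12 weeks of age, and were sorted by tumor mass. The HT (high tumor) mice carried tumors of at least 2 g and the LT (low tumor) mice tumors of at most 1.2 g. PBS controls received saline in place of cells and were 12 weeks old, so they were not age-matched to the 1wk and 2wk mice. Chow and water were available throughout, on a light-dark cycle of equal hours. The sources used here do not give the week of each LT and HT mouse, the hour of collection or how much each mouse ate.

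FoxO factors are transcription factors that insulin and IGF-1 hold in check: AKT phosphorylates them and they leave the nucleus. In muscle, nuclear FoxO factors switch on the ubiquitin ligases Fbxo32 (atrogin-1) and Trim63 (MuRF1) together with genes of autophagy. Glucocorticoids bind the receptor made from Nr3c1, which is freed from its chaperones, enters the nucleus and binds response elements in DNA. Fkbp5, Tsc22d3, Klf15, Klf9, Sgk1 and Ddit4 are among its usual targets, and several of them act on the same insulin, AKT and mTORC1 pathway that controls FoxO.

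Values are the deposited normalized read counts, whose sums ran between 9.9 and 13.4 M in the 40 libraries. The sequencing behind them was uneven. The 24 PBS, 1wk and 2wk libraries held 15.7 to 28.7 M reads and the 16 LT and HT libraries 3.49 to 7.76 M, as worked out from the step of low values, so depth and late tumor stage cannot be told apart. The thinnest value of any of the 10 genes still rested on about 57 reads (Ddit4 in an HT mouse). The 10 muscle fibre markers were all measured and summed to 1415137 to 2330021 in HT and 1748649 to 2728600 in PBS mice. Neutrophil markers (5 of 11 measured) summed to 632 to 2602 in HT and 27.3 to 56 in PBS mice, and erythroid markers (6 of 9 measured) to 30106 to 103106 in HT and 7843 to 26147 in PBS mice. The mice C54 and C55, both HT, stood apart in most of the 10 genes, and many results that rest on them are given with and without them. In bulk RNA, fewer cells of a type and less RNA per cell cannot be told apart.

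None of the 10 genes changed between groups by limma at an adjusted p of 0.05. In HT against PBS, where 32.9% of all 12573 genes changed (16.5% higher and 16.5% lower), the count was 0 of 10, and it was also 0 at an unadjusted p under 0.05, which 43.3% of all genes passed. In HT against LT, where 20.4% changed (9.94% higher and 10.5% lower), Tsc22d3 and Sgk1 passed the unadjusted p alone, as 35.4% of all genes did. In LT against PBS, 0.636% of genes changed and 12.3% passed the unadjusted p, and no member passed either threshold. In 1wk against PBS, 0.525% changed, and Foxo4 and Sgk1 passed the unadjusted p alone, where 11.6% of all genes passed it. In 2wk against PBS, 0.0795% changed, and Tsc22d3 passed the unadjusted p, where 4.66% of all genes did. In 2wk against 1wk, 0.0159% changed, and Foxo4, Tsc22d3 and Sgk1 passed the unadjusted p, where 7.6% of all genes did. Each of the 10 genes overlapped between the groups in all 6 comparisons. Of all genes, the groups did not overlap for 3.47% in HT against PBS, 1.04% in HT against LT, 0.231% in LT, 0.0954% in 2wk and 0.406% in 1wk against PBS, and 0.0875% in 2wk against 1wk. The median log2 fold change of the 10 genes was 0.05 in HT against PBS and -0.18 in HT against LT, where the medians over all genes were 0 and 0.01.

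**Figure D1:**
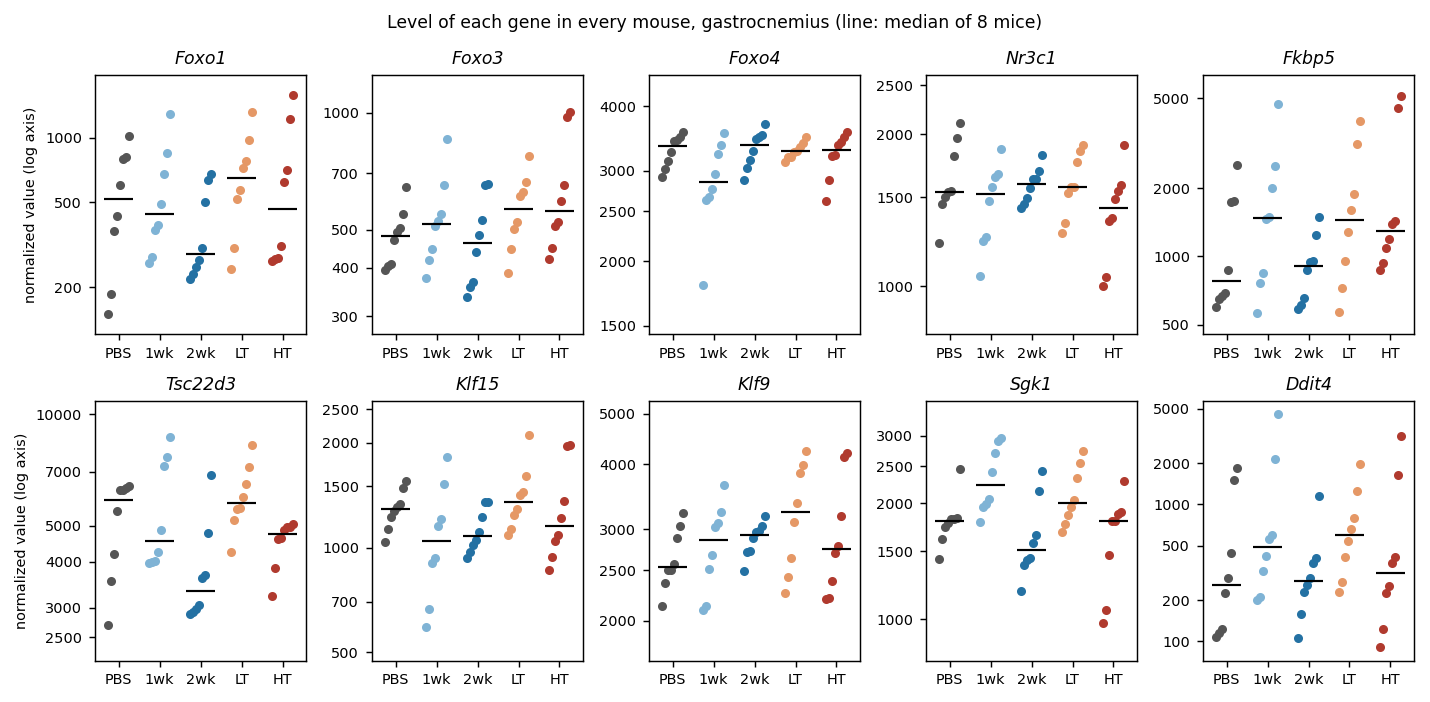
Normalized read count (log axis) of each of the 10 genes in every mouse of the PBS, 1wk, 2wk, LT and HT groups, 1 panel per gene and 1 point per mouse, with the group median as a bar. The groups overlap in every panel, and Ddit4, Fkbp5 and Foxo1 spread far more widely within a group than Foxo4 or Nr3c1.

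Among the FoxO factors, Foxo1, which drives the atrophy ligases, was spread widely in every group. Its lowest, median and highest values were 264, 466 and 1574 in HT mice, against 151, 517 and 1019 in PBS mice. The highest HT values were those of C55 (1574) and C54 (1225), and the other 6 HT mice ran from 264 to 707, inside the PBS range. The log2 fold change was 0.20 (SE 0.41, adjusted p = 0.743, limma), and it was -0.28 without C54 and C55 (adjusted p = 0.674). The values were 244, 647 and 1310 in LT mice, 219, 286 and 676 in 2wk mice and 261, 439 and 1285 in 1wk mice. The 2wk median was the lowest of the 5, but the 2wk range lay within that of PBS mice.

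Foxo3, which like Foxo1 acts on the ligases and on autophagy genes, ran at 421, 560 and 1003 in HT mice, against 395, 484 and 645 in PBS mice. C54 (1003), C55 (978) and C38 (654) lay above every PBS mouse. Its log2 fold change of 0.35 (SE 0.18, adjusted p = 0.116, limma) had the lowest p of the 10 genes in HT against PBS and was higher than the PBS mean in 6 of 8 mice. Without C54 and C55 it was 0.12 (adjusted p = 0.651). With each library scaled to the same sum, which moved the median of all genes by 0.07, it was 0.43 and passed the threshold (adjusted p = 0.038). LT mice had 388, 566 and 776, 2wk mice 337, 463 and 655, and 1wk mice 375, 518 and 854.

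Foxo4, the third FoxO factor of muscle, varied little between mice in most groups. It ran at 2620, 3291 and 3560 in HT mice, against 2910, 3344 and 3572 in PBS mice, a log2 fold change of -0.03 (SE 0.09, adjusted p = 0.817, limma). The 95% interval of that difference was narrow, 0.867 to 1.11 as a fold. The coefficient of variation was 9.97% in HT and 3.7% in LT mice, against 7.31% in PBS mice. Only the 1wk mice were more scattered, with 1803, 2857 and 3549, and 4 of them lay below every PBS mouse. The 1wk difference of -0.22 (SE 0.09) did not pass over all genes (adjusted p = 0.295, limma). The lowest 1wk mouse, C17, also had the highest macrophage marker sum of the group, 12243, where the 1wk median was 2063 and the PBS range 1187 to 2971.

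Nr3c1, the glucocorticoid receptor, ran at 1003, 1427 and 1903 in HT mice, against 1216, 1538 and 2100 in PBS mice. Of 8 HT mice, 7 lay below the PBS mean, and C54 (1003) and C55 (1041) lay below every PBS mouse. The log2 fold change was -0.23 (SE 0.12, 95% interval -0.47 to 0.01, adjusted p = 0.136, limma). It was -0.08 without C54 and C55 (adjusted p = 0.657), whereas leaving out C46, the highest HT mouse, took it past the threshold (adjusted p = 0.0479). LT mice had 1273, 1572 and 1900, 2wk mice 1429, 1597 and 1820, and 1wk mice 1048, 1524 and 1865. Each of these ranges overlapped that of PBS mice.

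Fkbp5, a co-chaperone that the receptor induces and that in turn lowers the receptor's affinity for hormone, had the largest fold change of the 10 genes in HT mice and one of the widest spreads. It ran at 869, 1298 and 5095 in HT mice, against 596, 778 and 2531 in PBS mice. C55 (5095) and C54 (4513) were far above the next HT mouse (1433), and the other 6 lay inside the PBS range. The log2 fold change was 0.67 (SE 0.41, 95% interval -0.16 to 1.5, adjusted p = 0.209, limma), and 0.15 without C54 and C55 (adjusted p = 0.832). High mice were not confined to HT: C20 had 4714 among 1wk mice (565, 1484 and 4714), C39 3960 among LT mice (569, 1444 and 3960), and C10 2531 among PBS mice. The 2wk group reached only 1491 (587, 908 and 1491).

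Tsc22d3, which encodes the glucocorticoid-induced leucine zipper GILZ, ran lower in HT than in LT mice without passing over all genes. Its values were 3225, 4754 and 5057 in HT mice, against 4251, 5770 and 8259 in LT mice. All 8 HT mice lay below the LT mean of 6058, and the log2 difference was -0.41 (SE 0.19, 95% interval -0.79 to -0.03, adjusted p = 0.112, limma). Without C54 and C55 it was -0.44 (adjusted p = 0.186). PBS mice were split (2702, 5871 and 6383), with 5 of them between 5496 and 6383 and C2, C9 and C8 at 4188, 3544 and 2702. HT against PBS gave only -0.14 (SE 0.19, adjusted p = 0.596). The 2wk mice had 2894, 3340 and 6866 and the 1wk mice 3962, 4559 and 8690, and 6 of 8 2wk mice lay below every 1wk mouse. That difference was -0.53 (SE 0.19, adjusted p = 0.553, limma).

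Klf15 encodes a transcription factor that the receptor induces and that turns on the breakdown of amino acids in muscle. It ran at 860, 1154 and 1970 in HT mice, against 1040, 1294 and 1556 in PBS mice (log2 fold change -0.04, SE 0.18, adjusted p = 0.878, limma). C54 (1970) and C55 (1955) were above every PBS mouse and 2 other HT mice were below every PBS mouse, so the mean hid a wider spread. LT mice had 1086, 1356 and 2114, 2wk mice 933, 1081 and 1354, and 1wk mice 591, 1043 and 1819. Klf9, a related factor that also follows glucocorticoids, ran at 2201, 2742 and 4206 in HT mice, against 2137, 2535 and 3222 in PBS mice (0.13, SE 0.13, adjusted p = 0.461). Its highest median was in LT mice (2256, 3229 and 4235), where the difference from PBS was 0.26 (SE 0.13, adjusted p = 0.427). The 2wk mice had 2488, 2926 and 3174 and the 1wk mice 2093, 2853 and 3640.

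Sgk1 encodes a kinase related to AKT that can phosphorylate FoxO3. It came closest to a call: 975, 1798 and 2283 in HT mice, against 1680, 2000 and 2733 in LT mice. Of 8 HT mice, 7 lay below the LT mean of 2113, and C54 (975), C55 (1055) and C60 (1466) lay below every LT mouse. The log2 difference was -0.40 (SE 0.15, 95% interval -0.70 to -0.09, adjusted p = 0.0565, limma), and -0.18 without C54 and C55 (adjusted p = 0.458). Against PBS mice, with 1431, 1801 and 2451, HT gave -0.18 (SE 0.15, adjusted p = 0.377). The early groups pointed apart. The 1wk mice had 1793, 2233 and 2954 and 7 of 8 lay above the PBS mean of 1812 (0.36, SE 0.15, adjusted p = 0.32), while the 2wk mice had 1186, 1509 and 2433 and 6 of 8 lay below every 1wk mouse (-0.52, SE 0.15, adjusted p = 0.385). With a weight for each library, Sgk1 passed in 2wk against 1wk (adjusted p = 0.0352).

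Ddit4 (REDD1), which restrains mTORC1 and is induced by glucocorticoids, fasting and hypoxia, was the most variable. It ran at 90.2, 314 and 3176 in HT mice, against 107, 258 and 1854 in PBS mice, so that the highest mouse held 35.2 times the lowest in HT and 17.3 times in PBS. The log2 fold change was 0.26 (SE 0.67, adjusted p = 0.795, limma), with a 95% interval of 0.467 to 3.07 as a fold. The LT mice had 230, 601 and 1958 (0.90 against PBS, SE 0.67, adjusted p = 0.628), the 2wk mice 106, 276 and 1159, and the 1wk mice 200, 490 and 4565 (0.91 against PBS, SE 0.67, adjusted p = 0.661). The coefficient of variation was 138% in HT, 76.1% in LT, 89.2% in 2wk and 135% in 1wk mice, against 119% in PBS mice. Without C54 and C55 the HT difference from PBS was -0.59 for Ddit4 (adjusted p = 0.557, limma), -0.26 for Klf15 (0.289), -0.04 for Klf9 (0.852) and 0.04 for Sgk1 (0.885), so that the sign turned for Ddit4, Klf9 and Sgk1, as it did for Foxo1.

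**Figure D2:**
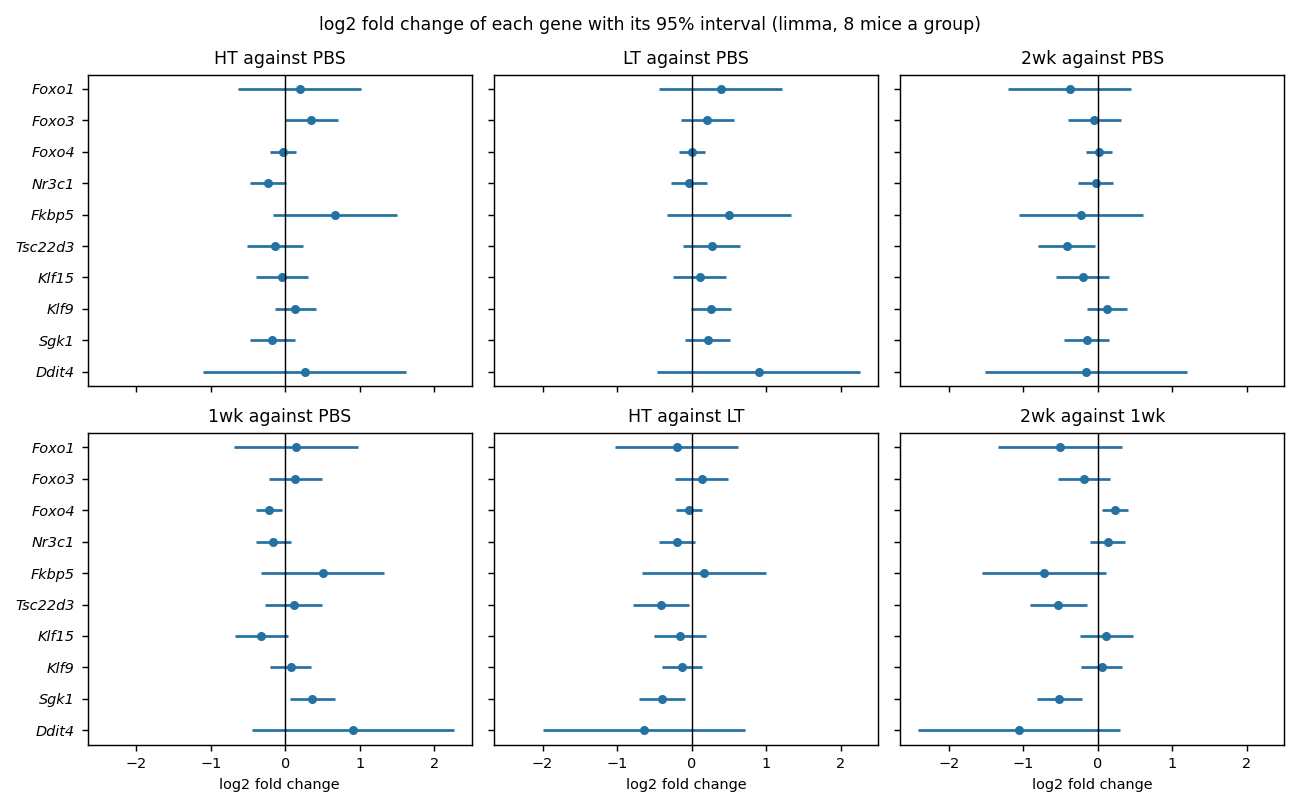
Log2 fold change of each of the 10 genes in the 6 comparisons, as points with 95% intervals from limma, 1 panel per comparison, with a vertical line at no change. No gene was past an adjusted p of 0.05. Intervals run from narrow for Foxo4 (0.867 to 1.11 as a fold in HT against PBS) to wide for Ddit4 (0.467 to 3.07).

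Response elements were sought near the members, as a description of sequence and not of binding. Sgk1 is shown because its promoter holds a full palindromic glucocorticoid response element (AGAACA and TGTTCT with 3 free bases between them), which 3 of 32851 RefSeq promoters of 300 bases hold (0.00913%, build GRCm38.p6, both strands). The table held 15 promoters of 8 of the members, and only this one had it. It matched chr10:21869539-21869838 of GRCm39 on the plus strand, inside the Sgk1 gene, and the element is in capitals.
Sgk1: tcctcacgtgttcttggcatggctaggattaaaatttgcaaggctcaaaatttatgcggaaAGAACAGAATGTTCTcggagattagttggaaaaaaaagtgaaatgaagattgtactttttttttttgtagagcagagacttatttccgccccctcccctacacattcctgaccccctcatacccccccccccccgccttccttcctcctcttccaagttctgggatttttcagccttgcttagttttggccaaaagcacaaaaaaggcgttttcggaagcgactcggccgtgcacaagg

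The FoxO motif GTAAACA is in 1199 of the 32851 promoters (3.65%, both strands) and, among the members, in that of Klf9. This promoter matched chr19:23118340-23118639 of GRCm39 on the plus strand, and the motif is in capitals.
Klf9: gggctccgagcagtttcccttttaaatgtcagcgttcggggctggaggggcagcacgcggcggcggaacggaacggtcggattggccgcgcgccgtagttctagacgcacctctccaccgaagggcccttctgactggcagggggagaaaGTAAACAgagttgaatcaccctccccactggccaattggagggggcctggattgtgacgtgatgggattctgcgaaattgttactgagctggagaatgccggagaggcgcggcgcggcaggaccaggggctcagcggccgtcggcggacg

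A shorter form of the element (GNACA and TGTNC with 3 free bases between them, so that every full element also counts) was sought within 10000 bases of each gene's start in GRCm39 on both strands. It is common, in 28.6% of the 12573 genes, and was present at 4 of the 10 members, Klf15 with 4 matches, Fkbp5 with 2, and Klf9 and Sgk1 with 1 each. Foxo1, Foxo3, Tsc22d3 and Ddit4, which were correlated across mice with Fkbp5 and Klf15, had no match. A link between the element and the correlations was not tested. The 3 matches printed here are 1 each for Fkbp5, Klf15 and Klf9, with the element in capitals. They lie at chr17:28703907-28703959 in a Fkbp5 intron (minus strand), chr6:90448352-90448404 in a Klf15 intron (plus strand), and chr19:23112437-23112489 before the start of Klf9 (plus strand, outside the gene in GENCODE vM39).
Fkbp5: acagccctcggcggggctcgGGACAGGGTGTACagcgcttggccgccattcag
Klf15: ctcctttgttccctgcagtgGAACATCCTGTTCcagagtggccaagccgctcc
Klf9: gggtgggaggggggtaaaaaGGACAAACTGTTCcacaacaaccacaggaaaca

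Within groups, the values of several members moved together from mouse to mouse. Deviations of log2(value + 1) from the group mean were correlated over the 40 mice for all 45 pairs, with permutations within groups, and 26 pairs passed an adjusted p of 0.05 (24 positive and 2 negative). By Spearman rank, 24 positive pairs and 1 negative pair passed. Most of them came from 7 genes, grouped after their values were seen: Foxo1, Foxo3, Fkbp5, Tsc22d3, Klf15, Klf9 and Ddit4 formed 21 pairs with a median r of 0.69, of which 20 passed. The exception was Tsc22d3 with Klf9 (r = 0.29, adjusted p = 0.0763). Of the 21 pairs, 20 were positive in each of the 5 groups, and the other one, Foxo3 with Ddit4, was at -0.15 in 2wk mice and positive in the rest. The smallest p that 100000 permutations can give is 1e-05, and 5.62e-05 after adjustment.

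Foxo1 and Fkbp5 were the most closely tied pair (r = 0.80, rho = 0.79, n = 40, permutation adjusted p = 5.62e-05), with r between 0.74 and 0.95 within the groups. Without the 2 mice farthest from the median of Foxo1, r was 0.79, and without C54 and C55 it was 0.75. Foxo3 and Fkbp5 gave r = 0.79 (rho = 0.76, adjusted p = 5.62e-05 by permutation), and 0.74 without the 2 farthest mice. Of all other genes of the table, Fkbp5 ranked 1st in its correlation with Foxo3. Fkbp5 and Ddit4 gave 0.79 (rho = 0.70, adjusted p = 5.62e-05 by permutation, 0.74 without the 2 farthest mice), and Foxo3 and Klf15 gave 0.77 (rho = 0.71, adjusted p = 5.62e-05 by permutation, 0.71 without the 2 farthest mice). As a background, an r of at least 0.5 was reached by 1.96% of the 12563 genes outside the list for Foxo1, 3.72% for Foxo3, 4.34% for Fkbp5 and 2.84% for Ddit4.

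Mice that were high or low for one of the 7 genes were often so for others, though not for all. C20 was among the 2 highest of the 1wk mice for 9 of the 10 genes, and C34 among the 2 highest of the 2wk mice for 8. In PBS, C10 was among the 2 highest for 8, with Fkbp5 at 2531 and Ddit4 at 1854, so the pattern was present without a tumor. C39 held that place for 7 genes in LT, and C54 and C55 for 7 each in HT. The same mice also held low places, C39 among the 2 lowest LT mice for Tsc22d3 and Sgk1, C54 and C55 among the 2 lowest HT mice for Nr3c1 and Sgk1, and C10 among the 2 lowest PBS mice for Foxo4 and Nr3c1. At the low end, C43 was among the 2 lowest LT mice for 9 genes and C15 among the 2 lowest 1wk mice for 8.

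**Figure D3:**
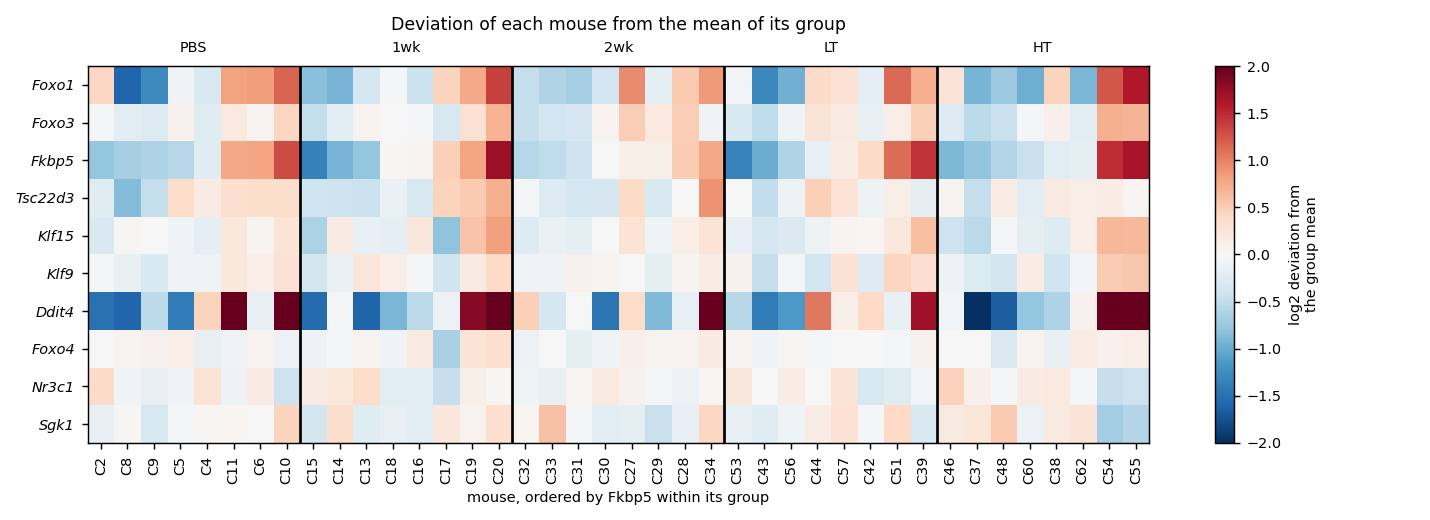
Deviation of log2(value + 1) from the group mean for the 10 genes in each of the 40 mice, as a colour from below (blue) to above (red) the mean, with mice set out by group and ordered by Fkbp5 within it. Deviations past either end of the colour bar take its end colour. Columns that are high for Foxo1, Fkbp5, Klf15, Klf9 and Ddit4 at once appear in each group, C10 in PBS, C20 in 1wk, C34 in 2wk, C39 in LT, and C54 and C55 in HT.

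The receptor gene ran against Fkbp5. Nr3c1 with Fkbp5 gave r = -0.55 (rho = -0.50, n = 40, permutation adjusted p = 0.00234), -0.54 without the 2 farthest mice and -0.41 without C54 and C55, and it lay between -0.90 in HT and 0.22 in 2wk mice. Nr3c1 with Ddit4 was at the threshold (r = -0.40, rho = -0.30, permutation adjusted p = 0.0498, -0.45 without the 2 farthest mice) and at -0.21 without C54 and C55. The pairs of Nr3c1 with Foxo1, Foxo3, Tsc22d3, Klf15 and Klf9 did not pass (r = -0.26, -0.27, -0.12, -0.3 and -0.17). Without C54 and C55 these were at -0.06, -0.01, -0.1, -0.08 and 0.12. No positive pair of Nr3c1 passed.

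Sgk1 stood outside the group of 7. Its one pair past the threshold was that with Tsc22d3 (r = 0.36, rho = 0.43, n = 40, permutation adjusted p = 0.0375, 0.34 without the 2 farthest mice). With Fkbp5 it gave -0.04 over all mice (rho = 0.06, permutation adjusted p = 0.853, 0.01 without the 2 farthest mice), where the r within groups was -0.89 in HT, 0.29 in LT, -0.13 in 2wk and 0.53 in 1wk, against 0.74 in PBS mice. The difference in r between groups was not tested, and the pooled r was 0.33 without C54 and C55, the mice with the highest Fkbp5 and the lowest Sgk1 of HT. Foxo4 followed Klf15 (r = 0.64, rho = 0.59, permutation adjusted p = 0.000876, 0.48 without the 2 farthest mice) but not Foxo1 (0.16, rho = 0.21, adjusted p = 0.453, 0.16 without the 2 farthest mice).

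**Figure D4:**
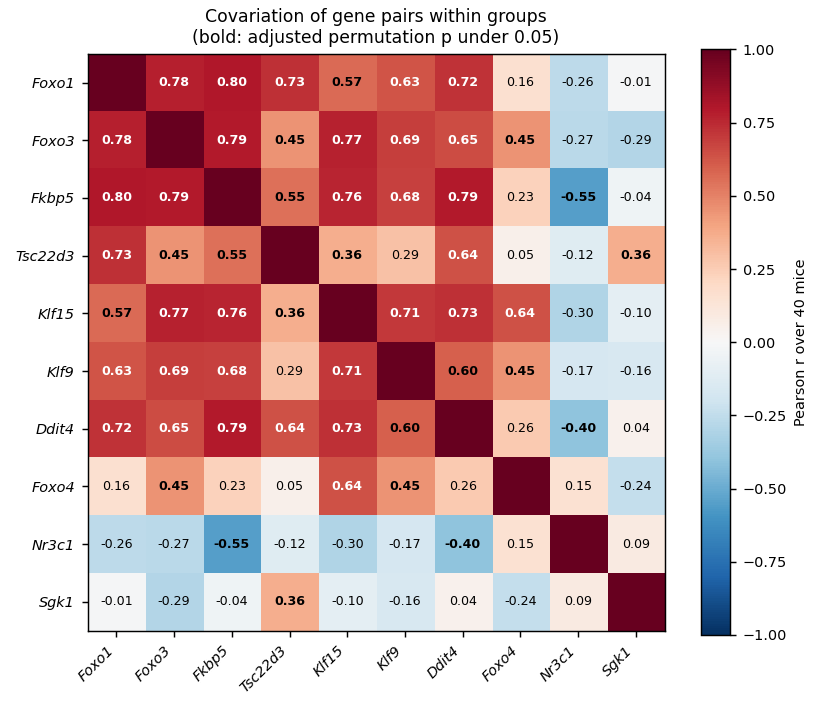
Pearson r of the 45 pairs of the 10 genes over 40 mice, after group means were removed, as a colour with the value in each cell, in bold where the adjusted permutation p passed. The 7 genes Foxo1, Foxo3, Fkbp5, Tsc22d3, Klf15, Klf9 and Ddit4 form a block with a median of 0.69, and the cells of Nr3c1 and Sgk1 are mostly near or below 0.

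Marker sums of other cells moved with some members. Over 80 relations of the 10 genes with 7 marker sums and read depth, computed after the data were seen, the macrophage sum went with lower Foxo4 (r = -0.73, rho = -0.55, permutation adjusted p = 0.0096, r = -0.50 without the 2 farthest mice), Klf15 (r = -0.56, rho = -0.47, permutation adjusted p = 0.0261, r = -0.44 without them) and Klf9 (r = -0.50, rho = -0.41, permutation adjusted p = 0.017, r = -0.41 without them). By rank only the first of these passed. The fibroblast sum went with lower Foxo4 (r = -0.62, rho = -0.62, permutation adjusted p = 0.004, r = -0.53 without the 2 farthest mice) and Klf15 (r = -0.64, rho = -0.65, permutation adjusted p = 0.004, r = -0.60 without them). The muscle fibre sum went with higher Foxo4 (r = 0.56, rho = 0.46, permutation adjusted p = 0.0156, r = 0.57 without the 2 farthest mice), though not by rank. The neutrophil sum and the read depth passed with none of the 10. Read depth came closest with Klf9 (r = -0.47, permutation adjusted p = 0.139). By rank that pair had rho = -0.52 (permutation adjusted p = 0.0733), and r was -0.62 without the 2 farthest mice. The part of these cells in the correlations among members was not tested.

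The genes whose deviations were most like each member's were picked by the same r over 40 mice, among genes of mean value at least 20, and are given as a description. Fkbp5 was followed most closely by Odf3l2 (0.91), Serinc3 (0.90) and Glul (0.90), the last of which encodes glutamine synthetase, a classical glucocorticoid target in muscle. Foxo1 was followed by Ip6k3 (0.87), Odf3l2 (0.87) and Max (0.85), so Odf3l2 was near the top for both. Ddit4 was followed by Zfp36 (0.91), which encodes an mRNA-destabilizing protein, Cebpd (0.89), a stress-induced transcription factor, and Map3k6 (0.85).

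For Foxo3 the nearest were Kdm4a (0.79), Spns2 (0.78) and the lipid droplet gene Plin4 (0.77). Tsc22d3 was followed by Arrdc2 (0.76), Ppp1r3c (0.75), a glycogen-targeting subunit, and Ube2j1 (0.73). Klf15 was followed by Paip2b (0.81) and Sympk (0.80), and Klf9 by Cab39 (0.86), Ank3 (0.80) and Pnpla8 (0.80). Nr3c1 was followed by Mat2a (0.85), G3bp2 (0.84) and Ccdc50 (0.82), and Foxo4 by Rab5b (0.82), Txlnb (0.80) and Dcaf11 (0.80). Sgk1 had the loosest neighbours, Mlip (0.66), Tm7sf3 (0.65) and Armt1 (0.63).

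Known targets of FoxO in muscle were followed in the same fit. Of 19 listed FoxO targets, 11 rose and 1 fell in HT against PBS by limma (57.9% and 5.26%, where 16.5% of all genes rose and 16.5% fell), with a median log2 fold change of 0.69 against 0 over all genes. Fbxo32 ran at 3413, 16258 and 67298 in HT mice, against 2160, 3370 and 4891 in PBS mice (log2 fold change 2.16, SE 0.42, adjusted p = 0.000216). Trim63 ran at 2951, 9917 and 86381 in HT mice, against 2752, 3302 and 5237 in PBS mice (1.75, SE 0.45, adjusted p = 0.00337). In both, C55 and C54 were the 2 highest HT mice, and the third HT mouse was at 28330 for Fbxo32 and 22676 for Trim63, still above every PBS mouse. Eif4ebp1, a brake on translation (1.56), and the lysosomal protease gene Ctsl (1.06) also rose, and Sod2 of the mitochondria fell by 0.33.

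The count of FoxO targets, like that of all genes, was lower without a few mice. Only 6 rose and 0 fell in HT against PBS without C54 and C55, and 7 rose with a weight for each library. Over all genes, calls in either direction numbered 2466 without C54 and C55 and 2970 with library weights, against 4140 with neither. In HT against LT, 8 rose and 1 fell (42.1% and 5.26%, median 0.58), and 4 rose without C54 and 2 without both C54 and C55, where all genes gave 2564 calls with every mouse, 1486 without C54 and 912 without both. In LT, 2wk and 1wk against PBS, 0 of the 19 passed by limma, and 0, 0 and 0 passed an unadjusted p under 0.05. All 5 measured neutrophil markers, 5 of 6 erythroid, 7 of 10 endothelial, 3 of 7 adipocyte and 3 of 11 macrophage markers also rose in HT against PBS, and 3 of 10 muscle fibre markers, 1 of 7 fibroblast markers and 1 erythroid marker fell, and their part in these counts was not tested.

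Of 20 further glucocorticoid-responsive genes measured, 8 rose and 2 fell in HT against PBS (40% and 10%, median 0.53). In HT against LT, 4 rose and 1 fell (20% and 5%, where 9.94% of all genes rose and 10.5% fell). Without C54 only 1 of the 20 rose against LT, where all genes gave 1486 calls, against 2564 with every mouse. Pdk4 and Sesn1 stand in this list and in that of the FoxO targets. The metallothioneins Mt2 (log2 fold change 2.39, SE 0.66, adjusted p = 0.00533, limma) and Mt1 (1.96, SE 0.58, adjusted p = 0.00855), which bind zinc and also answer to inflammation, rose most. Mt1 ran at 98.1, 696 and 5335 in HT mice, against 113, 151 and 394 in PBS mice. Cebpd (1.39) and the cell cycle inhibitor Cdkn1a (1.08) rose. For Cebpd only C55 (2063) and C54 (1806) were high, and the other HT mice ran from 185 to 468, inside the PBS range of 61.9 to 651. For Cdkn1a the third HT mouse, at 589, was still above the highest PBS mouse (376). The phosphatase gene Dusp1 fell by 0.96 (SE 0.22, adjusted p = 0.00102, limma) and Cebpb by 0.83. Without C54 and C55 only 1 of the 20 rose and 3 fell, and 2 rose with a weight for each library. Cebpb was just short of the threshold with each library scaled to the same sum (adjusted p = 0.0569) and did not pass in a fit of these groups alone (adjusted p = 0.124). In 2wk against 1wk, 0 of the 20 passed by limma, but 8 were lower at an unadjusted p under 0.05 (0 higher) and the median was -0.48, where 7.6% of all genes passed the unadjusted p in either direction and the median of all genes was 0. In the same comparison 7 of 11 macrophage markers (median -0.68) and 3 of 7 fibroblast markers (median -0.29) were also lower at an unadjusted p under 0.05, and their part in the result was not tested. The 10 members had a median of -0.34 there. Glul, one of the 3 genes most like Fkbp5, had a log2 fold change of -0.14 in HT against PBS (SE 0.30, adjusted p = 0.74).

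Across mice, this list followed the members closely. Of the 20 genes, 16 were positively correlated with Fkbp5 (median r 0.63), 16 with Ddit4 (median 0.60) and 16 with Foxo1 (median 0.54), past an adjusted p of 0.05 over the 1410 relations of list genes with the 10 members. Only 1 was positively correlated with Foxo4. None was with Sgk1 (1 negative) or Nr3c1 (7 negative). With Fkbp5, Glul gave r = 0.90 (rho = 0.92, permutation adjusted p = 0.000352) and Lpin1 0.81, and with Ddit4 the clock gene Per1 gave 0.81. Of the FoxO targets, 12 of 19 were positively correlated with Fkbp5 (median 0.46), 11 with Klf15 (0.51) and 10 with Foxo3 (0.47). With Foxo1 it was 4 (0.38) and with Foxo4 2 (0.19), and 10 were negatively correlated with Nr3c1 (-0.47). All these counts are by Pearson r. By Spearman rank, Gabarapl1, Bnip3, Sesn1, Eif4ebp1 and Cat dropped out with Fkbp5 (permutation adjusted p 0.127 to 0.306). Trim63 (0.112), Fbxo32 (0.104) and Cat (0.243) dropped out with Foxo3. Gabarapl1 and Cat did so with Klf15, and Fbxo21, Gadd45a, Ctsl and Cat with Nr3c1. Of the 20 glucocorticoid-responsive genes, Sesn1 likewise dropped out by rank with Fkbp5, whereas Cebpb passed by rank alone (permutation adjusted p 0.0249). Lpin1 (0.104) and Sesn1 (0.127) dropped out with Ddit4, and Mstn (0.101) and Nfkbia (0.107) with Foxo1. With Nr3c1, Mt2 (0.052), Cdkn1a (0.0948) and Lpin1 (0.0914) dropped out. Within groups, r of Bnip3 with Fkbp5 ran from -0.56 to 0.96. The lowest r with Fkbp5 in any group was also negative for Cat (-0.45), Eif4ebp1 (-0.38), Gabarapl1 (-0.30), Ulk1 (-0.29) and Sesn1 (-0.12). The other FoxO targets that passed were positive in every group. Without the 2 mice farthest from the median of Fkbp5, r was 0.34 for Gabarapl1, 0.33 for Sesn1 and 0.32 for Cat. For the rest of the 12 it was 0.40 to 0.62. The r of list genes without C54 and C55 is not given here. In contrast, Ddit4l, a relative of Ddit4 (r = -0.76 with Fkbp5), the insulin receptor substrate Irs1 (-0.70) and Igf1 (-0.54) ran against Fkbp5. These relations were chosen after the data were seen. The share of all genes past the same adjusted p is not given here. An r of at least 0.5 with Fkbp5 was reached by 13 of the 20 genes and 8 of the 19 FoxO targets. Of the 12563 genes outside the members, 4.34% reached it. With Ddit4 and Foxo1 it was 13 and 12 of the 20 (2.84% and 1.96% of all). Of the 19, 10 reached it with Klf15 (6.4%) and 8 with Foxo3 (3.72%), and 9 were at -0.5 or lower with Nr3c1 (6.17%).

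**Figure D5:**
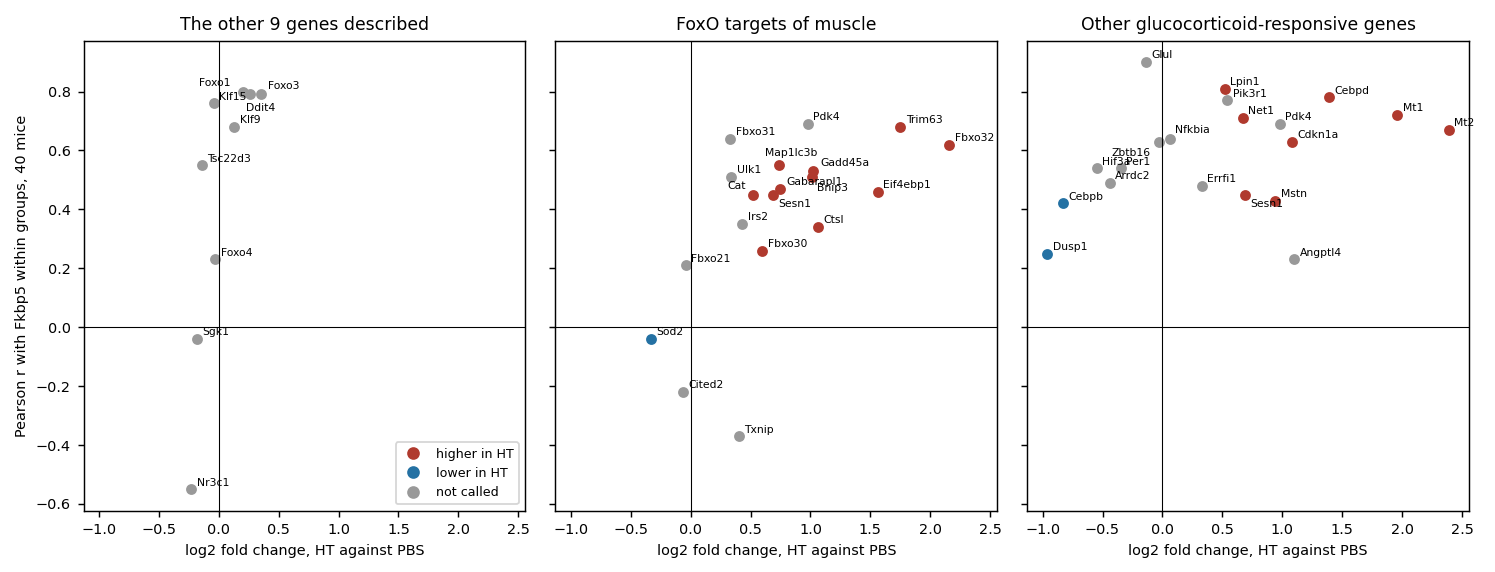
Pearson r with Fkbp5 over 40 mice after group means were removed (vertical axis) against the log2 fold change in HT against PBS (horizontal axis), 1 point per gene, in a panel each for the members other than Fkbp5, the FoxO targets and the other glucocorticoid-responsive genes. Red points rose in HT, blue points fell and grey points did not pass the test. Glul has an r of 0.90 with a log2 fold change of -0.14, while Fbxo32 has the largest change of the FoxO targets, 2.16.

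Genes above and beside the members changed in both directions in HT against PBS, where 16.5% of all genes rose and 16.5% fell. Of 22 genes of insulin and AKT signaling, 10 rose and 1 fell (45.5% and 4.55%, median 0.29), among them Akt1 (0.72), the 14-3-3 genes Ywhab (0.46) and Ywhaz (0.44), whose proteins hold phosphorylated FoxO in the cytoplasm, and the insulin receptor gene Insr (0.41). Without C54 and C55, 4 rose. Of 15 genes of the receptor complex, 5 rose and 1 fell (33.3% and 6.67%, median 0.09). The chaperone genes Ptges3 (0.85, SE 0.14, adjusted p = 3.05e-05, limma), Hsp90ab1 (0.77) and Hsp90aa1 (0.61) rose, and Nr3c2, the mineralocorticoid receptor gene, fell by 0.67. Hsd11b1, whose enzyme regenerates active glucocorticoid in tissue, rose by 0.43.

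Of 20 mTORC1 regulators, 2 rose and 4 fell (10% and 20%, median -0.09), where 16.5% of all genes went each way. Sesn1 was at 0.69 and Mlst8 at -0.46, and 2 of the regulators fell with each library scaled to the same sum. Without C54 and C55, 0 rose. Of 8 genes tied to Klf15, Slc25a20 and Fabp3 act in fatty acid use and the others in amino acid use. Among the 8, 0 rose (0 at an unadjusted p under 0.05) and 4 fell (50%, median -0.38). The 4 were Gpt (-0.94, SE 0.15, adjusted p = 1.46e-05, limma), Bcat2 (-0.69), Aldh5a1 (-0.62) and Gpt2 (-0.46), while Klf15 itself had -0.04. Of 11 other KLF factors, Klf10 alone rose, by 1.38 (SE 0.23, adjusted p = 3.96e-05, limma), and Klf13 alone fell, by 0.67 (9.09% each way). Of 4 TSC22 and SGK relatives, Tsc22d2 (0.52) and Sgk3 (0.37) rose (50%) and Tsc22d4 fell by 0.62 (25%). Without the PBS mouse C2, only 1 of these relatives rose. Of 12 ATF4 and hypoxia genes, 6 rose and 1 fell (50% and 8.33%, median 0.61), with Chac1 at 1.49 and Ddit3 at -0.58. Without C54, 4 of them rose, where all genes gave 3243 calls in either direction, against 4140 with every mouse. Of 18 clock genes, 11.1% rose and 16.7% fell, where 16.5% of all genes went each way. Among them Rora (0.75) rose, and Dbp (-2.17, SE 0.44, adjusted p = 0.000323), Hlf (-0.83) and Per3 (-0.57) fell. The hour of collection, which sets the level of clock genes, is not stated. Outside HT, the only gene of these pathway lists that changed against PBS was the growth factor gene Igf2 in 1wk mice (0.53, SE 0.12, adjusted p = 0.0271).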

How the data were processed

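The 40 gastrocnemius RNA-seq libraries were aligned by the authors with STAR 2.7.8a in Partek. The labels name both mm10 and mm39. Genes with fewer than 30 reads over all samples had been removed, and the deposited signal is a read count that the authors normalized by the median ratio of DESeq2. Only 83.8 to 89.6% of all values of a library lay within 0.1 of a whole read, so whole reads were not recovered and no count test was run. The authors' comparison columns (fold changes, p-values) hold their own findings and were not used.

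Values were taken as log2(value + 1). All 5 groups were fitted together with limma 3.58.1 (R 4.3.3), with Benjamini-Hochberg adjustment over 12573 genes at 0.05. Fold changes are on the log2(value + 1) scale. Correlations used deviations from group means over 40 mice, with 100000 two-sided permutations within groups (Python 3.11.15, numpy 2.4.6, scipy 1.17.1, pandas 2.3.3), and were adjusted over the family named beside each. Figures used matplotlib 3.10.9. The fit and the correlations were tested on simulated data with the same spread in every group. The libraries themselves were uneven, with weights from 0.1 (C55) to 2.59 (C31), and such unevenness was not simulated.

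The text names all 10 genes, at most the 4 genes of each list with the largest change among those called in a comparison, and the 3 genes most like each member. A few genes that this rule would name are not reported here. List genes outside this rule (Sod2, Dusp1, Cebpb, Hsd11b1, Per3, Ddit3, Glul, Irs1, Igf1, Ddit4l, Lpin1, Per1, Slc25a20 and Fabp3) were chosen after their values were seen. So were those named only for their correlations with members. The members and lists were chosen with earlier results of these data known. Alternatives were pseudocount, a filter on low values, scaling to the same sum, quantile normalization, library weights, a fit of 2 groups and leaving out mice. Leaving out C54 and C55 together was added after the data were seen. Sequences came from RefSeq (GRCm38.p6 promoters) and GRCm39 with GENCODE vM39. The number of mice and reads limits precision, and normalized values carry no counting interval.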

Additional observations from a re-analysis of the deposited data

Results flagged for a closer look

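Of 50 sets of 8 mice (10 genes in 5 groups), 4 had a highest mouse that stood away from the rest by Dixon's gap test at the 95% level. The test took the values unlogged, unlike the fits and correlations. Chance alone gives about 1 in 20 where values are normally distributed. Values as skewed as those of Ddit4 (coefficient of variation up to 138%) can be flagged more often, and log2 values were not tested. Fkbp5 was 4714 in the 1wk mouse C20, where the next mouse had 2503. Ddit4 was 4565 in the same mouse, where the next had 2142. Ddit4 was 1159 in the 2wk mouse C34, where the next had 406. Sgk1 was 2451 in the PBS mouse C10, where the next had 1834. These are the mice that ranked high across most of the 10 genes. In HT, C54 and C55 lay together and so left no such gap.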

How the results depend on the processing

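The count of members called stayed 0 in most alternatives. It was 1 in HT against PBS with each library scaled to the same sum (Foxo3), and 1 in 2wk against 1wk with a weight for each library (Sgk1). Leaving out 1 mouse gave 0 to 1 in HT against PBS, where Nr3c1 passed without C46, and 0 to 1 in HT against LT, where Sgk1 passed without C33, C39, C37, C38, C46, C48 or C62 in turn (adjusted p as low as 0.0271, limma, without C48). It gave 0 in the other 4 comparisons. The 26 correlated pairs were 23 to 29 when 1 mouse was left out. No result changed direction past its threshold. Of all genes, 4140 were called in HT against PBS, 2447 in a fit of these groups alone, 2466 without C54 and C55 and 2028 without C48, C54 and C55. In HT against LT 2564 were called, and 524, 912 and 400 in the same order, and 360 with library weights. With library weights 288 were called in LT against PBS (80 without them), 729 in 1wk against PBS (66), 242 in 2wk against PBS (10) and 95 in 2wk against 1wk (2). The comparisons without HT mice share the spread of the fit, and without C54 and C55 they gave 171 calls in LT against PBS, 118 in 1wk against PBS, 15 in 2wk against PBS and 4 in 2wk against 1wk (196, 134, 14 and 4 without C48 as well). In a fit of the compared groups alone, 3 genes were called in 2wk against 1wk. Leaving out 1 mouse gave 3216 to 4483 calls in HT against PBS, 1486 to 3158 in HT against LT, 44 to 144 in LT against PBS, 43 to 103 in 1wk against PBS, 0 to 19 in 2wk against PBS and 0 to 8 in 2wk against 1wk. Scaling to the same sum moved the share of calls that were higher to 65.1% in HT against PBS and 63.8% in HT against LT, where the main scaling gave 50% and 48.8%. No paired analysis was possible because the labels give each mouse a number of its own and no group shares one. Depth was lower in LT and HT than in the other groups, as given above, and intervals for Ddit4, Fkbp5 and Foxo1 were wide at 8 mice.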
